A study of Mus musculus with 10 samples.

Results

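The enzymes that attach glucuronic acid, sulfate or glutathione to lipophilic molecules were examined in the jejunum of mice with Pcyt1a targeted in the gut epithelium. They were chosen by symbol from 3 families, the UDP-glucuronosyltransferases (Ugt), the cytosolic sulfotransferases (Sult) and the soluble glutathione transferases (Gst). The rule found 49 genes among the 22180 genes tested, 10 Ugt, 21 Sult and 18 Gst genes. Another 11 symbols that match it, Ugt1a1, Ugt1a2, Ugt1a5, Ugt1a9, Ugt1a10, Ugt2a1, Ugt2a2, Gsta1, Gsta2, Gstm5 and Gstz1, stood only on probe sets annotated with several genes and have no value here.

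The 5 knockout arrays came from Pcyt1aLoxP/LoxP;VilCreERT2 mice, in which the villin promoter drives a tamoxifen-inducible Cre in the intestinal epithelium, and the 5 control arrays from Pcyt1aLoxP/LoxP mice without Cre. All mice were females aged 10 to 12 weeks, and both genotypes were given tamoxifen for 5 days. They ate a high-fat diet for 3 days and, after an overnight fast, were re-fed with it for 2 hours, when 3 cm of jejunum was taken. Loss of Pcyt1a and the presence of active Cre cannot be told apart in this design, and the piece also holds cells without villin. Values are log2 of the deposited intensities, where a difference of 1 is 2-fold, and differences are knockout minus control.

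As background, Ugt enzymes sit in the membrane of the endoplasmic reticulum and transfer glucuronic acid from UDP-glucuronic acid to drugs, steroids, bilirubin and bile acids. Cytosolic sulfotransferases use the sulfate donor PAPS, and glutathione transferases join the tripeptide glutathione to electrophiles, among them products of lipid peroxidation. In the small intestine these enzymes form part of the first-pass barrier of the enterocyte, and the conjugates leave the cell through ABC transporters.

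Pcyt1a itself, the gene targeted, was lower in every knockout array, at 7.51 ± 0.16 (SD, n = 5) against 9.22 ± 0.20 (SD, n = 5), with a difference of -1.71 (SE 0.11, limma adjusted p = 6.51e-05). All 18 enterocyte markers were measured and 0 of them lay among the dimmest 30% of genes, while markers of pancreas and liver differed little between arrays (list means of -0.14 to 0.12 and -0.09 to 0.09). Array medians ran from 45.8 to 48.1 on the linear scale. Markers of gut position differed between arrays of the same group. The mean of 13 proximal markers, as log2 deviation from each gene's mean over the 10 arrays, was 0.58 in knockout 1 and from -0.51 to -0.23 among knockouts 2 to 5. Control values ran from -0.04 to 0.54, with the highest in control 5. The mean of 15 ileum markers was -0.54 in knockout 1, from 0.28 to 0.63 among knockouts 2 to 5, and from -0.34 to -0.05 among controls. Knockout 1 lay above all controls in the proximal mean and below all of them in the ileum mean, while knockouts 2 to 5 lay on the other side of all controls in both. Of the 13 proximal markers 9 were lower in knockout and 4 higher, and of the 15 ileum markers 10 were higher and 5 lower. In both lists 0 were called. Cubn, an ileum marker named after its values were seen, was at -0.84 with groups that did not overlap. Whether these markers changed with genotype rather than position was not tested.

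None of the 49 genes passed the test over all genes (limma, adjusted p under 0.05), where 0.343% of all genes tested did. At an unadjusted p under 0.05 there were 8 of 49 (16.3%), against 12.1% of all genes. Of these, 7 were lower in knockout (14.3% of the members, 6.25% of all genes) and 1 was higher (2.04%, against 5.82%). Differences were negative in 30 members and positive in 19, with a median of -0.07, while 50.1% of all genes had negative values. For 42 of the 49 genes the 95% confidence interval lay inside a 2-fold difference in both directions, and for 32 it lay inside 1.5-fold. Of all 22180 genes, 21521 had intervals inside 2-fold and 18930 inside 1.5-fold, larger shares than among the members. The median within-group SD was 0.24 among members and 0.18 among all genes. The 22 members among the dimmest 30% of genes, which may be near background, made up 22 of the 42 members and 18 of the 32. Of the 27 brighter members, 20 lay inside 2-fold and 14 inside 1.5-fold. Their differences were negative in 20 and positive in 7, with a median of -0.10. The 7 genes whose intervals reached beyond 2-fold were Ugt2a3, Ugt2b36, Ugt2b5, Sult6b2, Gsta4, Gstk1 and Gstt1, in each case on the lower side.

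**Figure D1:**
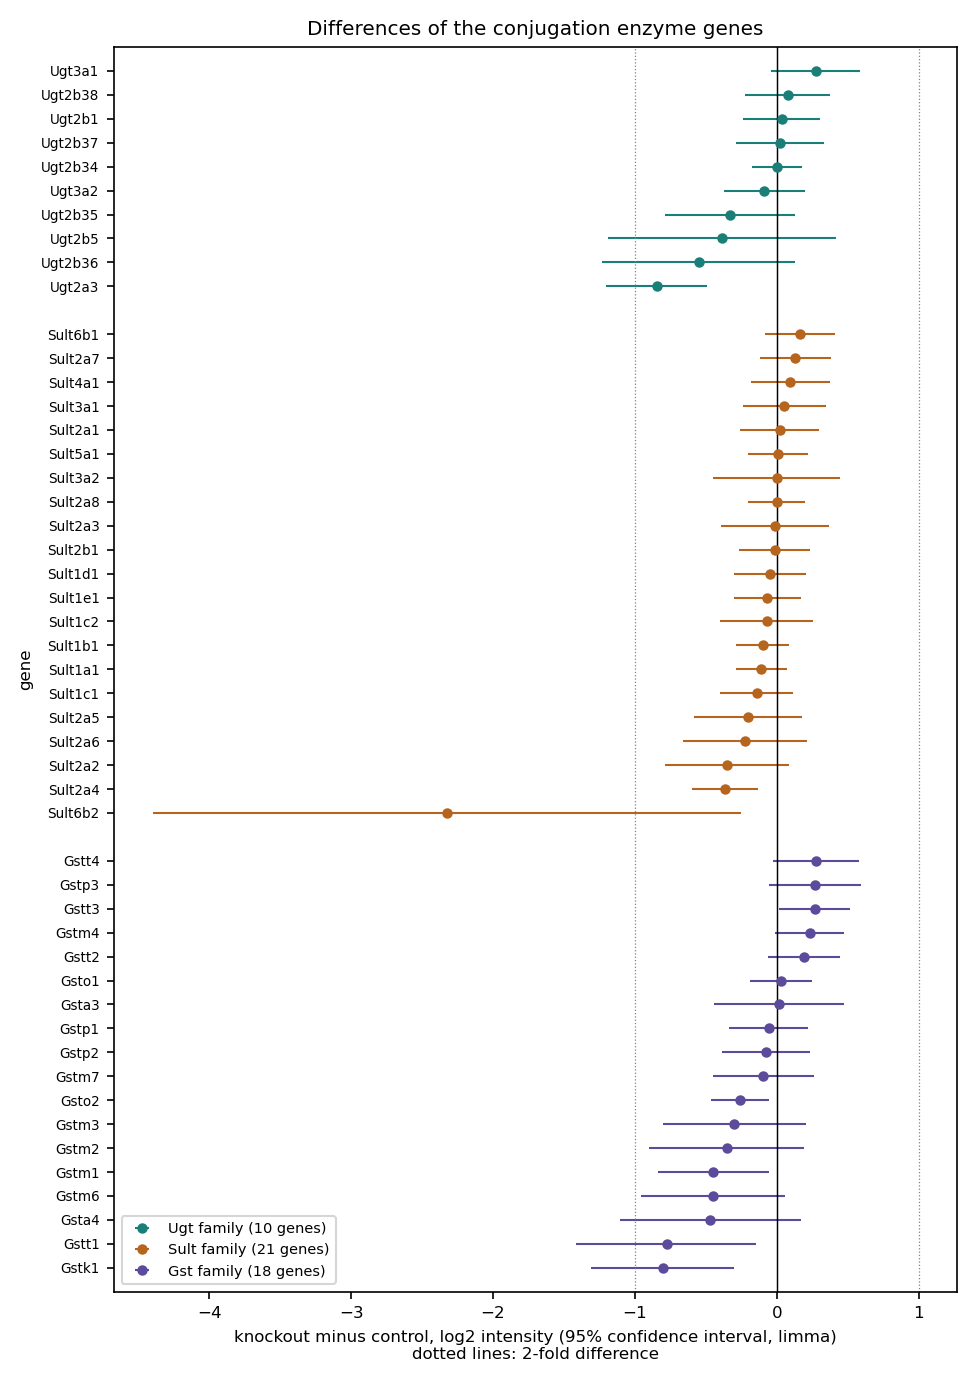
Log2 difference (knockout minus control) of each of the 49 genes on the horizontal axis, with its 95% confidence interval from limma (5 arrays a group), grouped by family on the vertical axis. Dotted lines mark 2-fold. Sult6b2 stands apart at -2.32 with an interval from -4.40 to -0.25, and 42 intervals lie between the dotted lines.

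The upstream sequences of 3 genes are shown because these genes carry the main patterns: Ugt2a3, the only member whose groups did not overlap, and Sult6b2 and Gstk1, whose differences shrank when a marker mean of gut position was a covariate. They were picked after their values were seen. Each is the 250 bases before the start of the gene, 5′ to 3′, from RefSeq (GRCm38.p6). Ugt2a3 lies at chr5:87337196-87337445 on the minus strand, Sult6b2 at chr6:142804467-142804716 on the minus strand and Gstk1 at chr6:42245685-42245934 on the plus strand. Capitals mark matches, on either strand, to words bound by factors known in gut epithelium or detoxification. GATA factors were searched as TGATAA and, as the other form of the same word, AGATAA. HNF1 was searched in these windows as GTTAAT, which is only part of a full HNF1 site, and HNF4 as CAAAGTCCA. For CDX factors the word was TTTATG, with TTTATA taken as an equal form. The core of the antioxidant response element was searched as TGACNNNGC.

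Ugt2a3: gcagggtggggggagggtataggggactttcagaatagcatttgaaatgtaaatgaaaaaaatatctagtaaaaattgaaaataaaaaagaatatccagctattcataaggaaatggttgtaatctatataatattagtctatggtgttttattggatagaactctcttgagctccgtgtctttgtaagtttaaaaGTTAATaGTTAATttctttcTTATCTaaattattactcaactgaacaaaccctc

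Sult6b2: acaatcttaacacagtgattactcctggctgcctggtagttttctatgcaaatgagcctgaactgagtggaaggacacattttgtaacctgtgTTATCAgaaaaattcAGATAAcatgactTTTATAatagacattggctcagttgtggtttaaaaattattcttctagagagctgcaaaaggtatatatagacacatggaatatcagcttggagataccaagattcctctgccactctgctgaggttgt

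Gstk1: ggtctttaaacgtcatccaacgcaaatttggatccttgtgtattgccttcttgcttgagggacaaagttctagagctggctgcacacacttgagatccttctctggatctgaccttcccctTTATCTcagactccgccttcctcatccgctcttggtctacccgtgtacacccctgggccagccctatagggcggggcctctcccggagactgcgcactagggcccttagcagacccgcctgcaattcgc

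The Ugt2a3 window held the HNF1 word 2 times, 54 and 47 bases before the start, and a GATA word at 34 bases. In the Sult6b2 window GATA words lay 157 and 142 bases before the start and a CDX word at 129, and the Gstk1 window held 1 GATA word at 129. Windows of this kind were found for 42 of the 49 genes (52 windows, as 9 genes had several). A GATA word was in 17 of these 52 windows (32.7%), against 16.6% of the 32851 windows of all genes, and the HNF1 word in 10 (19.2%, against 6.43%). The antioxidant element core was in 2 (3.85%, against 10.2%), a CDX word in 13 (25.0%, against 20.9%) and the HNF4 word in 0 (against 0.384%). Such a match is a run of letters and does not show binding. Genes with several windows counted more than once and many members are close relatives, so the windows are not independent. Differences between these shares were not tested.

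Ugt2a3, a glucuronosyltransferase of liver and intestine (probe set 17449363), had the smallest p of all members. Its log2 intensity was 9.85, 10.11, 10.42, 9.99 and 9.40 in knockouts 1 to 5, and 10.86, 10.81, 10.79, 11.04 and 10.52 in controls 1 to 5. Every knockout array lay below every control array, which held for 1 member (2.04%) and for 1.56% of all genes. The opposite order held for 0 members and 1.20% of all genes. The difference was -0.85 (SE 0.16, 95% confidence interval -1.20 to -0.49), or 1.80-fold lower, and the limma adjusted p was 0.0557. It therefore missed 0.05 and was the only member under 0.1, where 1.18% of all genes lay.

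The Ugt2a3 result lay close to the threshold under several settings. It was called without knockout 3, the highest of the knockouts (-0.96, adjusted p = 0.0447), where 0.131% of all genes were called. It was also called when the dimmest 30% of genes were left out (adjusted p = 0.0450; 0.657% of the remaining genes) and with trend and robust fitting (0.0461; 0.379% of all genes). Over the 20 alternatives its adjusted p ran from 0.0447 to 0.353. Its size changed little when the marker mean of each array was used as a covariate, at -0.83 (SE 0.22) with the ileum list and -0.87 (SE 0.21) with the proximal list, with an adjusted p of 0.353 and 0.246. Both fits lean on knockout 1, the only array that broke the order of the groups in these means, to separate group from marker mean. The part of gut position in the Ugt2a3 difference was not tested. In bulk tissue, fewer cells of a type and less RNA per cell cannot be told apart. Tuft and enteroendocrine marker means were also lower in all knockout arrays than in all controls (tuft -0.17 to -0.06 against 0.01 to 0.23, enteroendocrine -0.42 to -0.06 against -0.01 to 0.31), with 7 of 8 tuft and 9 of 10 enteroendocrine markers lower, of which 0 and 2 were called. Their part in the Ugt2a3 difference was not tested. The mean of the mature enterocyte list overlapped between groups (-0.30 to 0.04 against -0.08 to 0.15), with 14 of 18 markers lower and 0 called. Of these, Lct, the lactase gene, which also stands in the proximal list and is named after its values were seen, was at -0.72 with groups that did not overlap. The proliferation list had 11 of 13 markers higher and 0 called, with a median difference of 0.59 and list means of -0.50 to 0.67 in knockouts against -0.78 to 0.45 in controls. The part of these lists in the Ugt2a3 difference was not tested either.

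The nearest measured neighbours of Ugt2a3 had differences near 0, and the contrast between them and Ugt2a3 was not tested. In the RefSeq gene order (GRCm38.p6) it lies between Ugt2b37 and Ugt2b38 in a row of 8 members that begins with Ugt2b34. Ugt2b37 differed by 0.02 (SE 0.14) and Ugt2b38 by 0.08 (SE 0.14), and both are among the dimmest 30% of genes. Ugt2b34, at the start of the row, was well above that range with knockout arrays at 12.06 to 12.22 and control arrays at 12.08 to 12.36. Its interval of -0.17 to 0.18 is among the narrowest of the members. These genes are close relatives, and probes may not tell every pair apart.

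The other Ugt2b genes varied between arrays more than between groups. Ugt2b36 had values of 4.46, 5.32, 4.79, 5.52 and 3.78 in knockouts 1 to 5 and 5.24, 4.98, 5.53, 6.04 and 4.83 in controls 1 to 5. Its groups overlapped, with a difference of -0.55 (SE 0.31, limma adjusted p = 0.527). Ugt2b5 was at -0.39 (SE 0.37), with control 5 at 7.05 and the other controls at 4.85 to 5.85. Ugt2b35 was at -0.33 (SE 0.21) and Ugt2b1 at 0.04 (SE 0.13). In the Ugt3a group, whose enzymes use other sugar donors than UDP-glucuronic acid, Ugt3a1 had values of 4.15, 4.43, 3.85, 4.03 and 3.88 in knockouts and 3.52, 3.85, 3.68, 4.22 and 3.69 in controls. The 2 groups overlapped, with a difference of 0.27 (SE 0.14, limma adjusted p = 0.490), and Ugt3a2 was at -0.09 (SE 0.13). Ugt2b1, Ugt3a1 and Ugt3a2 are among the dimmest 30% of genes. Over the 10 Ugt genes the median was -0.04, with 5 lower and 5 higher.

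Sult6b2, a little-studied cytosolic sulfotransferase (probe set 17472581), had the most negative difference of all 22180 genes and did not pass the test. Its log2 intensity was 11.15, 5.78, 6.35, 6.90 and 5.65 in knockouts 1 to 5 and 8.19, 8.54, 9.91, 9.26 and 11.56 in controls 1 to 5. Knockouts 2 to 5 lay below every control, whereas knockout 1 was above every control but control 5. The difference was -2.32 (SE 0.96, interval -4.40 to -0.25), 5.01-fold lower (1.19 to 21.1), with a limma adjusted p of 0.355. Its within-group SD of 1.87 ranked 6 among all genes, where the median was 0.18.

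The call, not the direction, changed with knockout 1, and with 1 array left out at a time the difference ran from -3.32 to -1.81. Without knockout 1 the difference was -3.32 (SE 0.57), 9.99-fold lower, and it was called (adjusted p = 0.0240). The 2 arrays with the highest Sult6b2 values, control 5 and knockout 1, were also the 2 with the highest proximal marker means. With the proximal list mean as a covariate the difference was -0.09 (SE 0.41), and with the ileum list mean it turned to 0.11 (SE 0.58, interval -1.17 to 1.38). Only knockout 1 broke the order of the groups in these means, so both fits lean on it to separate group from marker mean. The part of gut position in the Sult6b2 difference was not tested.

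**Figure D2:**
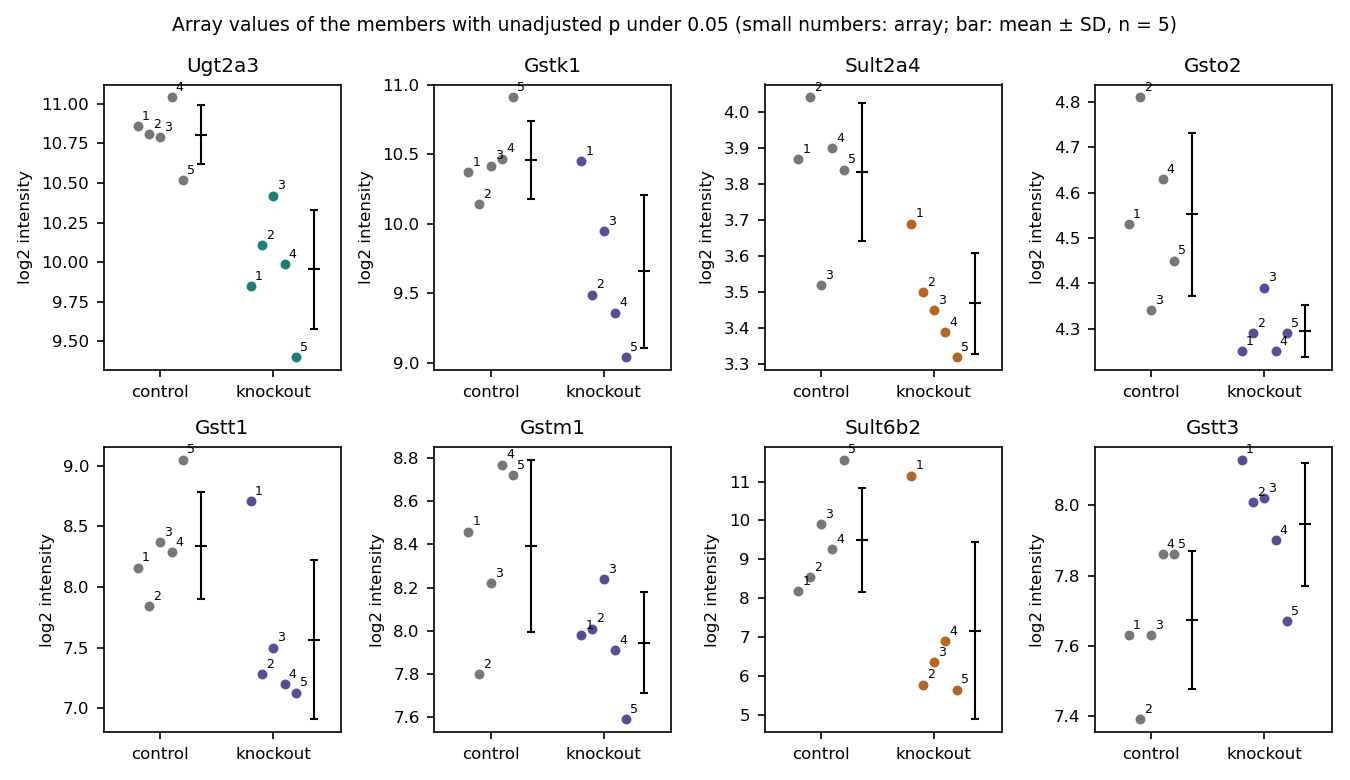
Log2 intensity (vertical axis) of the 8 genes with an unadjusted p under 0.05, by group. Points are arrays with their number, and bars are mean ± SD (n = 5). The Ugt2a3 groups do not overlap, and knockout 1 lies with the controls in Sult6b2 (11.15), Gstt1 (8.71) and Gstk1 (10.45).

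Gstk1 and Gstt1 were also low in knockouts 2 to 5 and high in knockout 1, and neither passed the test. Gstk1 encodes the kappa class enzyme of mitochondria and peroxisomes (probe set 17457876), and had 10.45, 9.49, 9.95, 9.36 and 9.04 in knockouts 1 to 5 and 10.37, 10.14, 10.42, 10.47 and 10.91 in controls 1 to 5. Only knockout 1 reached into the control range. The difference was -0.80 (SE 0.23, interval -1.31 to -0.30), 1.75-fold lower (1.23 to 2.48), with a limma adjusted p of 0.174. Gstt1, of the theta class (probe set 17241934), had 8.71, 7.28, 7.50, 7.20 and 7.13 in knockouts and 8.16, 7.84, 8.37, 8.29 and 9.05 in controls. Here too knockouts 2 to 5 lay below all controls, and knockout 1 was above all of them except control 5. Its difference was -0.78 (SE 0.29, interval -1.41 to -0.14), with an adjusted p of 0.311.

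Without knockout 1 both genes were called, Gstk1 at -1.002 (SE 0.19, adjusted p = 0.0299) and Gstt1 at -1.06 (SE 0.20, adjusted p = 0.0316). Gstk1, Gstt1 and Sult6b2 were then the 3 called members of 49 (6.12%), where 1.21% of all genes were called. Knockout 1 held the highest knockout value of all 3, so leaving it out favours these genes and the count is no separate support. The same 3 were called without knockout 1 and control 5 together, where 0.839% of all genes were, at -0.89 for Gstk1, -0.89 for Gstt1 and -2.81 for Sult6b2. With the ileum list as a covariate Gstk1 stood at -0.26 (SE 0.17) and Gstt1 at -0.06 (SE 0.20), and with the proximal list at -0.30 (SE 0.14) and -0.09 (SE 0.11). Neither was called with either covariate, and the part of gut position in these differences was not tested.

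**Figure D3:**
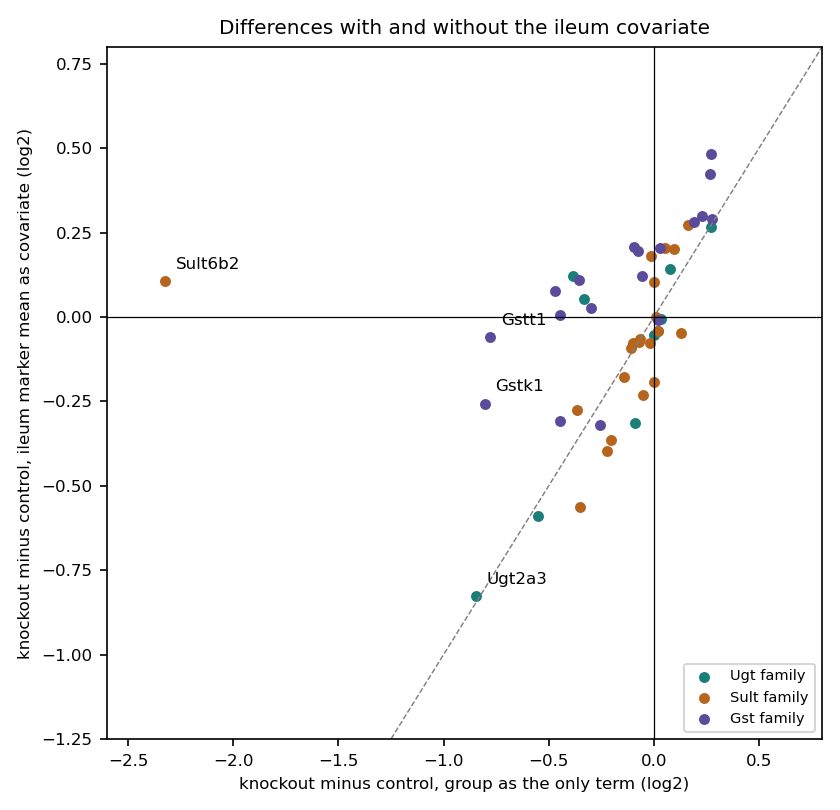
Log2 difference of each of the 49 genes with group as the only term (horizontal axis) against the difference with the ileum marker mean of each array as a covariate (vertical axis), colored by family. On the dashed line the values are equal. Ugt2a3 lies near it (-0.85 and -0.83), while Sult6b2 moves from -2.32 to 0.11 and Gstt1 from -0.78 to -0.06. The covariate fit leans on knockout 1 to separate group from marker mean.

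The theta class neighbours of Gstt1 had positive differences that did not pass the test. Gstt3, Gstt1, Gstt4 and Gstt2 follow each other in the RefSeq gene order. Gstt3 had 8.13, 8.01, 8.02, 7.90 and 7.67 in knockouts 1 to 5 and 7.63, 7.39, 7.63, 7.86 and 7.86 in controls 1 to 5. It was the only member higher in knockout with an unadjusted p under 0.05, at 0.27 (SE 0.12, limma adjusted p = 0.372), and only knockout 5 lay inside the control range. Gstt4, among the dimmest 30% of genes, was at 0.28 (SE 0.14) and Gstt2 at 0.19 (SE 0.12). With the ileum covariate these 3 stood at 0.42, 0.29 and 0.28, and none was called. The difference between Gstt1 and its neighbours was not tested.

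In the mu class, 5 of 6 genes had negative values and 0 were called. Gstm1, a mu class enzyme with broad substrates, had 7.98, 8.01, 8.24, 7.91 and 7.59 in knockouts 1 to 5 and 8.46, 7.80, 8.22, 8.77 and 8.72 in controls 1 to 5. Controls 2 and 3 lay inside the knockout range, with a difference of -0.45 (SE 0.18, limma adjusted p = 0.344). Gstm6 was at -0.45 (SE 0.23), Gstm2 at -0.35 (SE 0.25), Gstm3 at -0.30 (SE 0.23) and Gstm7 at -0.09 (SE 0.16). Gstm4, which lies next to Gstm1, was at 0.23 (SE 0.11). In Gstm6, Gstm2 and Gstm3 the highest array was control 5 and the lowest knockout 5. With the ileum covariate Gstm6 stood at 0.01, Gstm2 at 0.11 and Gstm3 at 0.03, while Gstm1 stood at -0.31 (SE 0.23). The 6 genes lie side by side and are similar in sequence, and cross-hybridization between them was not tested.

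Of the alpha class, Gsta4, which conjugates the lipid peroxidation product 4-hydroxynonenal, was at -0.47 (SE 0.29, interval -1.11 to 0.17), and 0.08 with the ileum covariate. Gsta3 was at 0.02 (SE 0.21), with knockout 4 at 7.16 and all other arrays between 5.81 and 6.66. The pi class had Gstp1 at -0.06 (SE 0.13), Gstp2 at -0.08 (SE 0.14) and Gstp3 at 0.27 (SE 0.15). Gstp1 and Gstp2 also share a further probe set that was left out, and their own probe sets may not separate them. Gsto1, an omega class enzyme, was at 0.03 (SE 0.10). Gsto2, its neighbour, known for dehydroascorbate reductase activity, had 4.25, 4.29, 4.39, 4.25 and 4.29 in knockouts and 4.53, 4.81, 4.34, 4.63 and 4.45 in controls. Only control 3 lay inside the knockout range, and the difference was -0.26 (SE 0.09, limma adjusted p = 0.299) in a gene among the dimmest 30%. Over the 18 Gst genes the median was -0.09, with 11 lower. With the ileum list as a covariate the median was 0.12 with 5 lower, and with the proximal list it was 0.10.

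**Figure D4:**
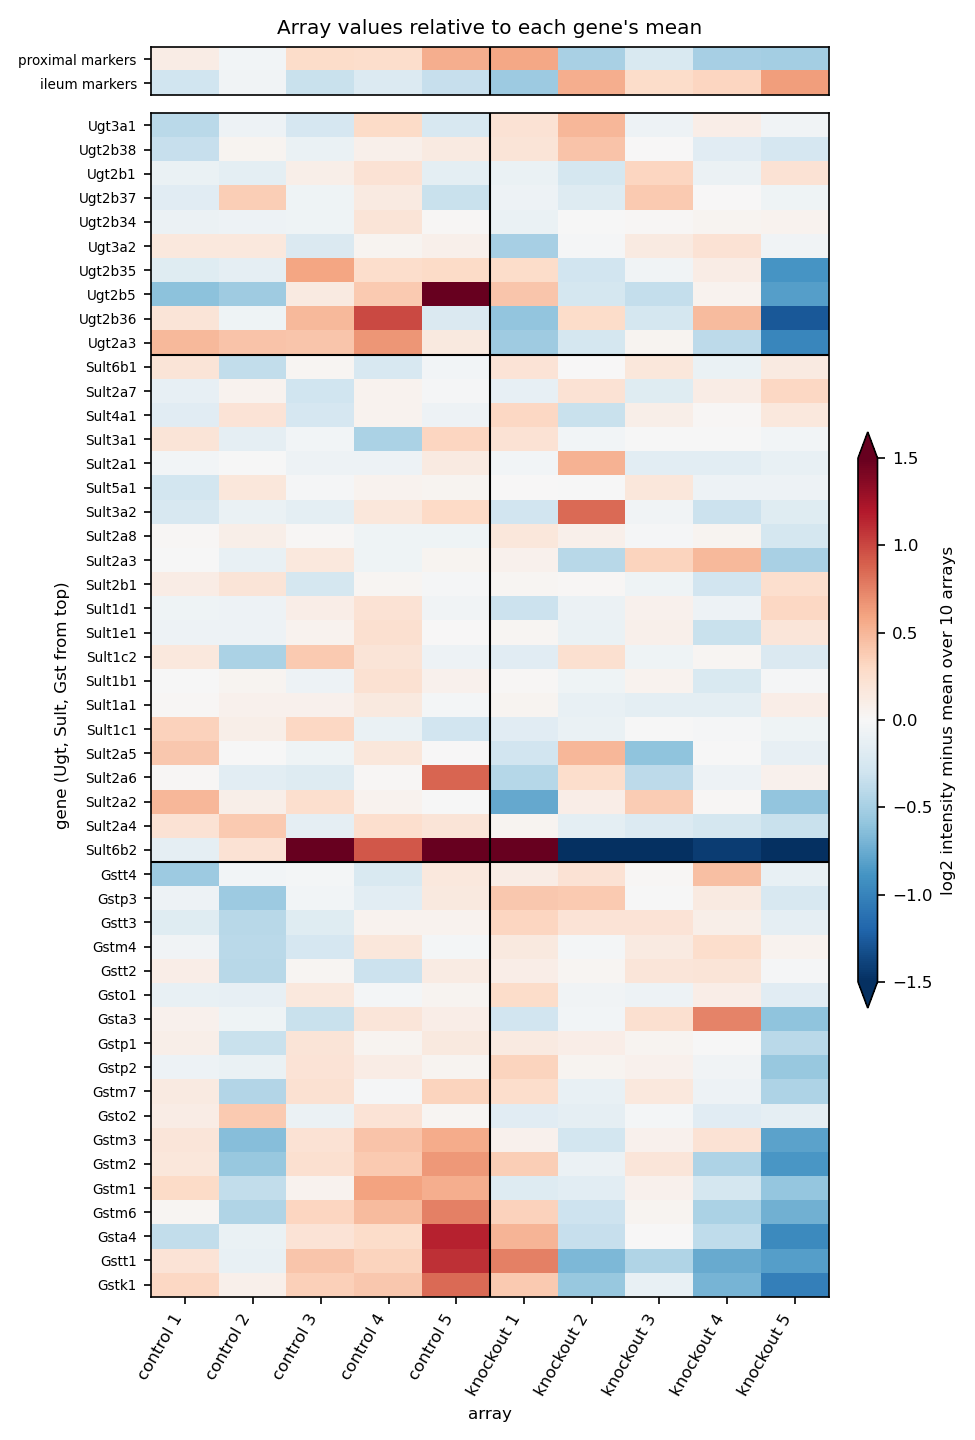
Log2 intensity of each of the 49 genes (rows) in each array (columns) minus that gene's mean over 10 arrays, with the means of the proximal and ileum marker lists on top; colors stop at 1.5 in both directions. Knockout 1 and control 5 have the highest proximal marker means (0.58 and 0.54) and the highest values of Sult6b2, Gstt1 and Gsta4.

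Among the sulfotransferases, the 6 Sult1 genes all had small negative differences, from -0.14 for Sult1c1 to -0.05 for Sult1d1, and none was called. Sult1b1, which acts on thyroid hormones, was at 10.19 to 10.47 in knockout arrays and 10.35 to 10.65 in controls, a difference of -0.10 (SE 0.09, interval -0.29 to 0.09). Sult1a1, the phenol sulfotransferase, was at -0.11 (SE 0.08), Sult1c2 at -0.07 (SE 0.15) and Sult1e1, the estrogen sulfotransferase, at -0.07 (SE 0.11). All 6 intervals lay inside 1.5-fold, and Sult1c1 and Sult1e1 are among the dimmest 30% of genes. Sult2b1, which sulfates cholesterol and pregnenolone, was at -0.02 (SE 0.12, interval -0.27 to 0.24).

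The 8 Sult2a genes, whose products sulfate hydroxysteroids and bile acids, were all among the dimmest 30% of genes. Sult2a4 had 3.69, 3.50, 3.45, 3.39 and 3.32 in knockouts 1 to 5 and 3.87, 4.04, 3.52, 3.90 and 3.84 in controls 1 to 5. The groups overlapped through control 3, and the difference was -0.36 (SE 0.11, limma adjusted p = 0.186). Sult2a2 had 3.14, 4.01, 4.29, 3.93 and 3.32 in knockouts and 4.41, 4.00, 4.16, 3.96 and 3.91 in controls, a difference of -0.35 (SE 0.20, adjusted p = 0.531) with knockouts 1 and 5 below all other arrays. Sult2a6 was at -0.22 (SE 0.20) and Sult2a5 at -0.20 (SE 0.17). Sult2a7 was at 0.13 (SE 0.11), and Sult2a1, Sult2a3 and Sult2a8 were at 0.02, -0.01 and -0.001. Copies of this cluster are much alike, and at this brightness their values may reflect background. Sult6b1, the relative of Sult6b2, was at 0.17 (SE 0.11), Sult4a1, a form of the nervous system, at 0.10 (SE 0.13), and Sult3a1, Sult3a2 and Sult5a1 between 0.001 and 0.05. Those 5 genes too were among the dimmest 30%. Over the 21 Sult genes the median was -0.05, with 14 lower.

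Genes that supply the cosubstrates were mostly not called. For UDP-glucuronic acid supply and turnover, 0 of 6 measured genes passed, with Pgm2 at -0.29 (SE 0.13) and Gusb, the lysosomal beta-glucuronidase, at 0.40 (SE 0.18). For PAPS supply and sulfate transport, 0 of 8 passed, with Slc35b2, the PAPS transporter of the Golgi, at 0.16 (SE 0.10) and Slc13a1, a sulfate transporter, at 0.50 (SE 0.31). In glutathione synthesis and recycling, 2 of 9 were called, against 0.343% of all genes, while 5 of the 9 had negative differences and the list's median was -0.03. The pathway lists were drawn up with earlier results of these data known, so counts of called genes in them are no separate support. Both called genes were higher: Gsr, glutathione reductase, at 1.14 (SE 0.17) and Slc7a11, the cystine transporter, at 1.79 (SE 0.26), each with a limma adjusted p of 0.0185. Their knockout arrays lay above all controls, at 10.50 to 11.36 against 9.42 to 10.02 for Gsr and 5.37 to 6.51 against 3.43 to 4.93 for Slc7a11. Among genes that process glutathione and its conjugates, 1 of 14 was called, Chac1, which degrades glutathione (0.96, SE 0.15, adjusted p = 0.0264), and Ggt6, of the gamma-glutamyltransferase family, was at 0.38 (SE 0.12). With the ileum covariate none of these 3 calls held, at 0.92 for Gsr (adjusted p = 0.222), 1.65 for Slc7a11 (0.214) and 0.77 for Chac1 (0.283), where 4 of all genes were called. Without knockout 1 all 3 were called (1.25, 1.86 and 1.06), where 1.21% of all genes were called. Knockout 1 held the lowest knockout value of Gsr and of Chac1, so leaving it out favours both.

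None of the other 5 pathway lists had a called gene. Among 14 membrane-bound or related glutathione transferases, Alox5ap, of leukotriene synthesis, was at -0.42 (SE 0.13) and Mgst1, the microsomal enzyme, at 0.34 (SE 0.13). Of 9 other conjugating enzymes, As3mt, an arsenic methyltransferase, was at -0.22 (SE 0.11) and Nat2, an N-acetyltransferase, at -0.16 (SE 0.10). Of 11 transporters of conjugates, Slc51a, a subunit of the basolateral bile acid and steroid exporter, was at 0.67 (SE 0.17, adjusted p = 0.120) and Abcc1, an exporter of glutathione conjugates, at 0.30 (SE 0.11). The Slc51a difference was 0.31 with the ileum covariate, and without knockout 1 the gene was called at 0.78 (limma adjusted p = 0.0359). Knockout 1 held the lowest Slc51a value among knockouts (9.89), so leaving it out favours this call. Slc51a is known to be high in the ileum, and the part of gut position in its difference was not tested. Among 13 regulators, the xenobiotic receptors Nr1i2 (PXR) and Nr1i3 (CAR) were at -0.27 (SE 0.10, adjusted p = 0.287) and -0.31 (SE 0.15, adjusted p = 0.424). Of 12 other targets of NRF2 and the aryl hydrocarbon receptor, 6 had higher and 6 lower values, with Ephx1, the microsomal epoxide hydrolase, at -0.60 (SE 0.27) and Cbr3 at 0.31 (SE 0.15).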

How the data were processed

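RNA of 10 mouse jejunum samples was measured on Affymetrix arrays. Per the submitters' processing notes, the authors used Affymetrix Expression Console 1.4.1.46 with RMA; the deposited values are linear intensity values from 1.8 to 15278.7, of which log2 was taken here. RMA equalizes probe distributions across arrays, which would hide a change common to most genes. The genome build of the probe sets is not given in the sources used here. Of 41345 probe sets, 23521 carried 1 symbol in GEO's platform annotation, 1814 several and 16010 none. Genes with several probe sets were given by the one with the highest mean; each of the 49 members had 1 probe set with a single symbol, and all 49 were found by Entrez identifier in RefSeq.

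Groups and replicate numbers come from the sample titles. The labels do not say that each array is a separate animal, so the p-values reflect how these samples vary, which may be technical. limma 3.58.1 (R 4.3.3) was fitted to all 22180 genes with group as the only term, with Benjamini-Hochberg adjustment across all of them. The fit was tested on simulated data, and alternatives changed the scaling, the filter on dim genes, the fit, the arrays used and the covariates. Array values are given for members that were called, had groups that did not overlap or had 1 of the 3 smallest p of their family, and also, by a choice made after the values were seen, for Gstm1 and Gstt3 (unadjusted p under 0.05); from each of the 9 pathway lists, called genes and the 2 smallest p are named. The members and lists were chosen with earlier results of these data known.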

Additional observations from a re-analysis of the deposited data

Results flagged for a closer look

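Within a group of 5 arrays, 8 of 98 groups held 1 array far from the rest, and chance gives about 1 in 20. In knockout these were knockout 1 for Sult6b2 (11.15, the others 5.65 to 6.90), Gstt1 (8.71, the others 7.13 to 7.50) and Sult3a1 (2.07), knockout 2 for Sult2a1 (2.49) and Sult3a2 (2.72), and knockout 5 for Gstp1 (10.90, the others 11.30 to 11.45). In control they were control 2 for Gstp1 (10.98, the others 11.35 to 11.50) and control 5 for Sult2a6 (3.26). Sult2a1, Sult2a6, Sult3a1 and Sult3a2 are among the dimmest 30% of genes. The share of such groups over all genes is not given here, and the groups share the same arrays. The count therefore shows no excess particular to these families.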

How the results depend on the processing

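The count of called members was 0 in the test as reported, 0 with the replicate block (replicate number as a term, where 27 of all genes were called against 76 without it), and 1 each (Ugt2a3) without the dimmest 30% of genes, with trend and robust fitting and at an adjusted p under 0.1. It was 3 without knockout 1 and control 5 together, and ran from 0 to 3 with 1 array left out at a time. The Ugt median moved from -0.04 to -0.39 without the dimmest 30% of genes, which left 5 of 10 Ugt genes. The Ugt median was 0.03 without knockout 1. The Gst median turned positive with both marker covariates, without knockout 5 (0.02) and in no other setting tried; the Sult median stayed negative in all. The Sult6b2 difference turned to 0.11 with the ileum covariate, and Gstm6 to 0.006 with the ileum and 0.019 with the proximal covariate, chosen after seeing the data; the cause was not tested. Of the 15 genes with array values or an unadjusted p under 0.1, 13 kept their direction in every alternative that held them (19 or 20). Of the other 34 members 7 did. The 15 were picked by small p in these data and the alternatives refit the same arrays, so this contrast is no separate support. Of all 49 members, 45 were called in none of the alternatives. The number of arrays limits the precision, and dim members may be near background. Arrays with the same replicate number did not deviate together (correlations of -0.13 to 0.12), so the numbers were not taken as pairs. Of all genes, 76 were called in the test as reported, 142 with array weights, 186 without knockout 1 and control 5, 4 with either covariate, and 11 to 268 with 1 array left out.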
